A study of Mus musculus with 30 samples.

Results

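The livers described here came from CREB3L3−/− mice and wild-type (WT) mice that had eaten a ketogenic diet, a feed rich in fat and very low in carbohydrate, for 4 days. They were the 8 arrays whose titles name the *Creb3l3* knockout or wild type on that diet, 4 of each genotype, out of 30 livers in the series, and every probe set with 1 gene symbol was examined (21218 of 35556 probe sets). The mice were male, about 8 weeks old, and the WT mice were C57BL/6, to which the CREB3L3−/− line had been backcrossed. They were fed ad libitum and were killed in the morning without a fast. The knockout was present in the whole body from birth, so that the intestine, where *Creb3l3* is also expressed, lacked it as well. Of the other 22 livers, 4 CREB3L3−/− and 4 WT livers taken after a 16 h fast, and 4 PPARα/CREB3L3−/− and 3 PPARα−/− livers of mice on the same ketogenic diet, were used to set the effect of CREB3L3 ablation beside its effect elsewhere. The other 7 livers entered only the estimate of the spread. Gene expression was measured on Affymetrix Mouse Gene 1.1 ST arrays, 1 liver per array, and levels are log2 intensities after Robust Multichip Averaging (RMA). Values of single livers are given in the order of their replicate numbers, 1 to 4, and the labels give no extraction or hybridization batch, so that a batch and the genotype cannot be told apart.

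CREB3L3, also called CREB-H, is a transcription factor held in the membrane of the endoplasmic reticulum of hepatocytes and enterocytes. After transport to the Golgi and cleavage there, its soluble part enters the nucleus and binds promoters of genes of lipid metabolism, among them *Apoa4* and *Fgf21*. Fasting and a ketogenic diet raise it together with PPARα, the nuclear receptor that drives fatty acid oxidation and ketone body formation, and both factors act on common targets.

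*Creb3l3* itself was at 4.43, 4.3, 4.29 and 4.44 in CREB3L3−/− livers, against 10.46, 10.48, 10.42 and 10.45 in WT livers, a log2 fold change of −6.09 ± 0.14, adjusted p = 4.8e-21 (limma, ± SE). Below, the value that follows the levels of the livers, or by which a gene was higher or at which it was lower, is this log2 fold change. The level of the targeted gene thus followed the label in every liver, with no overlap. *Ppara*, which encodes PPARα, was at 8.99, 8.89, 8.01 and 8.67 in CREB3L3−/− livers, against 10.54, 10.54, 10.51 and 10.37 in WT livers (−1.85 ± 0.27, adjusted p = 2.7e-06), so that no CREB3L3−/− liver reached the WT level. Arrays of CREB3L3−/− livers correlated with each other at 0.981 to 0.990, arrays of WT livers at 0.986 to 0.990, and arrays of different genotype at 0.943 to 0.975. Array medians were 4.25 to 4.33 in CREB3L3−/− livers and 4.22 to 4.26 in WT livers. Of 17 hepatocyte markers, 13 were lower in CREB3L3−/− livers and 0 higher (median −0.78), and albumin was at a mean of 13.2 in CREB3L3−/− livers and 13.4 in WT livers (*Alb*, −0.19 ± 0.05, not called).

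The comparison asked which genes depend on CREB3L3 in the ketogenic state. Calls required both a P under 0.001 and a fold change beyond 1.2. By this rule 3748 of the 21218 probe sets with 1 symbol were higher in CREB3L3−/− livers than in WT livers (17.7%) and 2419 were lower (11.4%). With a fold beyond 2, the numbers were 1334 and 938. Counted once per gene, on the probe set with the highest mean, 3152 of 18820 genes were higher (16.7%) and 2246 lower (11.9%). All 4 CREB3L3−/− livers lay above all 4 WT livers in 21.2% of the probe sets with 1 symbol, and below them in 17.5%. These shares are the background against which each gene group below should be read. The median log2 fold change of all probe sets with 1 symbol was −0.04, with an SD of 0.743 over probe sets.

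**Figure D1:**
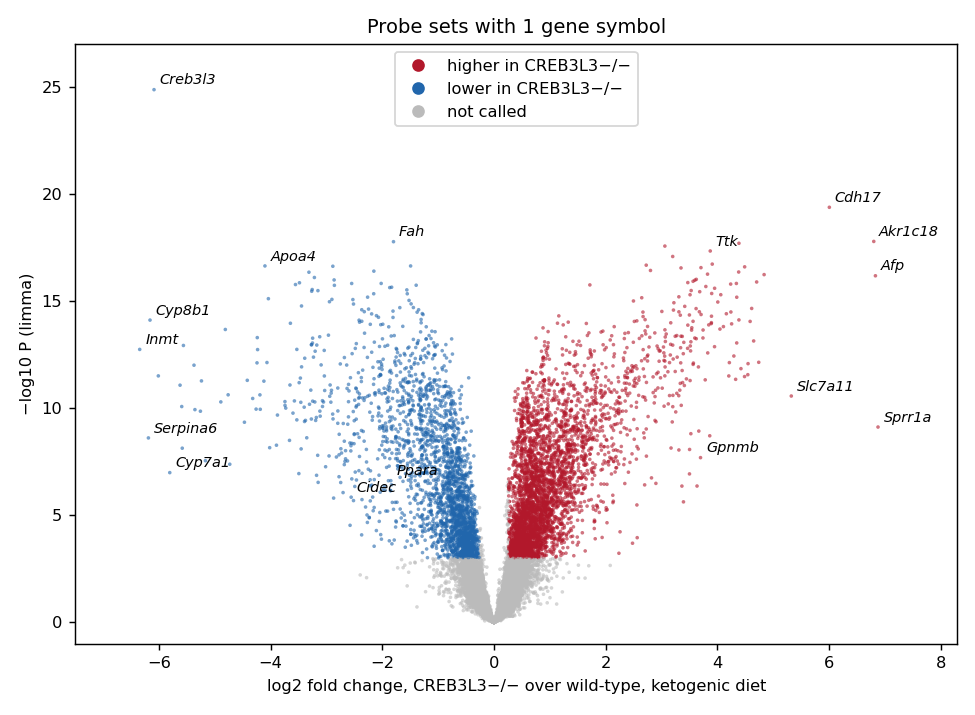
Log2 fold change of CREB3L3−/− over WT livers on the ketogenic diet (x axis) against −log10 of the limma P (y axis) for the 21218 probe sets with 1 gene symbol, 4 livers per genotype. Red points were called higher (3748) and blue points lower (2419) in CREB3L3−/− livers, and the labelled genes reach from −6.34 (Inmt) to 6.88 (Sprr1a).

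The 4 CREB3L3−/− livers did not all lie equally far from WT. Over the 6167 called probe sets, liver 1 was the CREB3L3−/− liver nearest to the WT livers in 60.7%, liver 4 in 21.4%, liver 2 in 9.76% and liver 3 in 8.12%. Among WT livers, liver 1 was the nearest to the CREB3L3−/− livers in 48.7% of them. Without CREB3L3−/− liver 1, 4652 probe sets were higher and 3009 lower, against 4560 and 3044 with it, all probe sets counted.

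The largest increases among genes whose groups did not overlap were those of *Sprr1a*, *Afp*, *Akr1c18*, *Cdh17* and *Slc7a11*. *Sprr1a*, a cornified-envelope protein of stressed epithelia, was at 12.08, 12.76, 12.63 and 12.50 in CREB3L3−/− livers, against 9.0, 4.96, 4.66 and 3.84 in WT livers (6.88 ± 0.72, adjusted p = 1.7e-08). WT liver 1 stood above the other WT livers here but still below every CREB3L3−/− liver. *Afp*, alpha-fetoprotein of the fetal liver, was at 9.20, 10.96, 11.22 and 10.91 in CREB3L3−/− livers, against 3.86, 3.70, 3.70 and 3.72 in WT livers (6.83 ± 0.35, adjusted p = 6.4e-14). *Akr1c18*, a hydroxysteroid dehydrogenase that inactivates progesterone, was at 8.82, 9.61, 10.04 and 10.26 in CREB3L3−/− livers, against 2.81, 3.63, 2.46 and 2.62 in WT livers (6.80 ± 0.30, adjusted p = 5.5e-15). *Cdh17*, the cadherin of the intestinal epithelium, was at 7.81, 9.62, 8.98 and 9.15 in CREB3L3−/− livers, against 2.94, 2.80, 2.85 and 2.95 in WT livers (6.01 ± 0.23, adjusted p = 7.5e-16). For the last 3 genes, all WT livers lay below the array medians and all CREB3L3−/− livers far above them. *Cyp21a1*, the steroid 21-hydroxylase of the adrenal cortex, *Plat*, tissue plasminogen activator, *Slc25a24*, a mitochondrial ATP-Mg carrier, and *Bmp8b*, a growth factor of the BMP family, were higher by 4.74, 4.65, 4.62 and 4.55. Another probe set of *Cyp21a1* gave 1.70. Members of the Akr1c family share sequence with near copies, so their probe sets may read more than 1 gene.

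The largest decreases, beside *Creb3l3*, were those of hepatocyte enzymes and secreted proteins. *Inmt*, indolethylamine N-methyltransferase, was at 6.14, 4.16, 3.60 and 3.36 in CREB3L3−/− livers, against 10.48, 10.48, 11.03 and 10.63 in WT livers (−6.34 ± 0.45, adjusted p = 2.1e-11). *Serpina6*, corticosteroid-binding globulin, was at 8.64, 3.96, 3.25 and 5.61 in CREB3L3−/− livers, against 11.41, 11.57, 11.82 and 11.42 in WT livers (−6.19 ± 0.69, adjusted p = 4.8e-08). CREB3L3−/− liver 1 kept more of both transcripts than the other 3 livers, yet lay under every WT liver. *Cyp8b1*, the sterol 12α-hydroxylase that sets the cholic acid share of bile, was at 4.59, 4.24, 3.04 and 3.81 in CREB3L3−/− livers, against 9.72, 9.87, 9.94 and 10.80 in WT livers (−6.16 ± 0.38, adjusted p = 2.0e-12). *Sult2a8*, a hepatic sulfotransferase, *Upp2*, uridine phosphorylase, *Car3*, carbonic anhydrase, and *Rgs16*, a regulator of G protein signalling, were lower, at −6.01 ± 0.49, −5.62 ± 0.48, −5.59 ± 0.53 and −5.35 ± 0.51. In bulk liver, fewer cells of a type and less RNA per cell cannot be told apart, here and in the groups that follow.

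**Figure D2:**
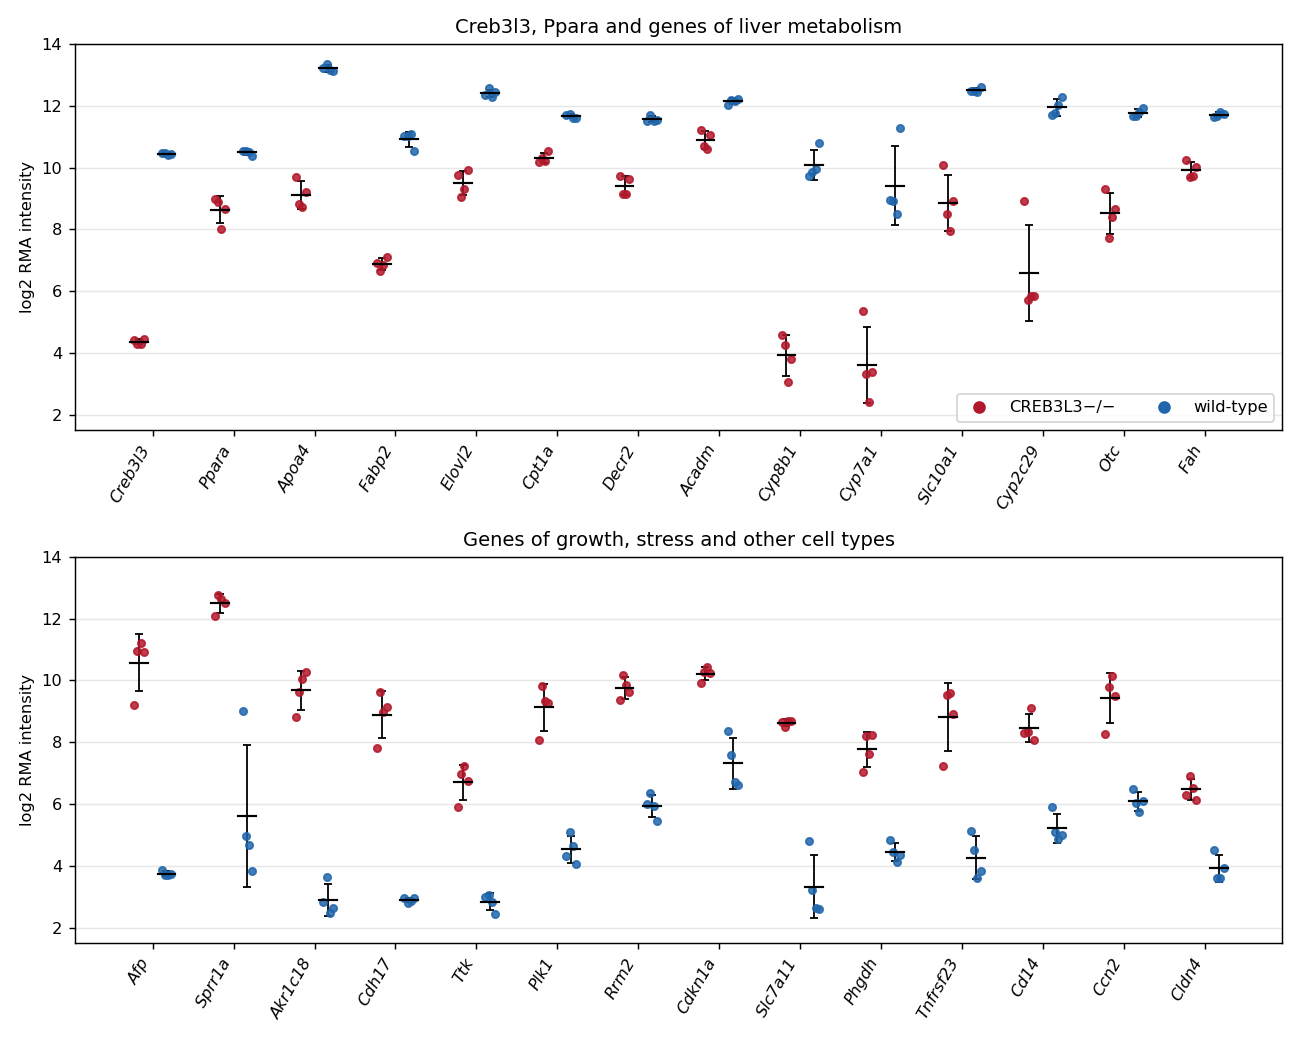
Log2 RMA intensity (y axis) of 28 genes in each of the 4 CREB3L3−/− livers (red, left of each pair) and the 4 WT livers (blue, right) on the ketogenic diet, with horizontal bars for the mean and error bars for 1 SD. No CREB3L3−/− liver overlapped the WT range in any gene shown.

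The 17 CREB3L3 targets named by the study come first. The study described them as lower in fasted CREB3L3−/− livers of this series, so that the direction of the list is not independent evidence. Of these, 16 were lower in CREB3L3−/− livers and 0 higher, with a median log2 fold change of −2.01, against a median of −0.05 over all genes. *Apoa4*, the apolipoprotein of triglyceride-rich particles, was at 9.69, 8.82, 8.71 and 9.21 in CREB3L3−/− livers, against 13.21, 13.36, 13.15 and 13.13 in WT livers (−4.10 ± 0.20, adjusted p = 3.5e-14), and its other probe set gave −4.24 ± 0.32. *Fabp2*, the intestinal fatty acid-binding protein, was at 6.90, 6.65, 6.85 and 7.11 in CREB3L3−/− livers, against 11.03, 11.02, 11.07 and 10.54 in WT livers (−4.04 ± 0.23, adjusted p = 3.3e-13). Both genes separated the genotypes by more than any spread within a group. The enzymes of polyunsaturated fatty acid elongation and desaturation were lower, *Elovl2* at −2.90 ± 0.16, *Fads2* at −2.50 ± 0.25, *Elovl5* at −1.86 ± 0.15 and *Fads1* at −1.31 ± 0.15. *Cpt1a*, the carnitine palmitoyltransferase that admits fatty acids to mitochondria, was at 10.17, 10.30, 10.22 and 10.54 in CREB3L3−/− livers, against 11.70, 11.73, 11.60 and 11.60 in WT livers (−1.35 ± 0.08, adjusted p = 8.5e-13).

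Others of these targets varied more between livers. *Fgf21*, the fasting hormone of the liver, was at 6.17, 5.05, 4.37 and 6.38 in CREB3L3−/− livers, against 8.74, 8.24, 6.91 and 6.16 in WT livers (−2.01 ± 0.45, adjusted p = 7.5e-04), so that the highest CREB3L3−/− liver exceeded the lowest WT liver. Its call was lost with the 8 compared arrays alone (adjusted p = 0.0388), with the 15 ketogenic arrays alone and without CREB3L3−/− liver 3, WT liver 1 or WT liver 2. *Cidec*, a lipid droplet protein, was at 7.16, 6.38, 6.11 and 6.03 in CREB3L3−/− livers, against 9.75, 9.55, 8.35 and 8.25 in WT livers (−2.56 ± 0.41, adjusted p = 1.3e-05). *Mfsd2a*, a lysophosphatidylcholine transporter, was at 9.66, 7.90, 9.19 and 9.90 in CREB3L3−/− livers, against 11.24, 11.47, 10.97 and 11.08 in WT livers (−2.03 ± 0.43, adjusted p = 4.9e-04), and its call was lost with the 15 ketogenic arrays alone. *Pck1* and *G6pc*, the gluconeogenic enzymes, were lower, at −2.17 ± 0.35 and −2.30 ± 0.39, with CREB3L3−/− liver 2 lowest at 8.36 and 7.11, and neither was called with the 8 compared arrays alone. *Apoa5*, *Apoa1*, *Scarb1* and *Hsd17b10* were lower, at −1.74, −0.48, −0.84 and −1.07. *Apoc2*, the lipoprotein lipase cofactor, was the exception at 11.52, 12.27, 12.38 and 12.28 in CREB3L3−/− livers, against 11.83, 12.14, 11.98 and 12.00 in WT livers (0.12 ± 0.15, adjusted p = 0.58).

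The genes of fatty acid oxidation were lower almost throughout. All 17 measured genes of mitochondrial fatty acid oxidation were lower (median −1.16), as were 17 of 18 of peroxisomal oxidation (median −1.32), and 0 were higher. *Acadm*, medium-chain acyl-CoA dehydrogenase, was at 11.20, 10.71, 10.61 and 11.04 in CREB3L3−/− livers, against 12.02, 12.20, 12.15 and 12.23 in WT livers (−1.26 ± 0.10, adjusted p = 6.5e-11). *Etfa*, the electron transfer flavoprotein that takes the electrons of these dehydrogenases, was lower, at −1.27 ± 0.08. Among peroxisomal enzymes, *Decr2*, a dienoyl-CoA reductase, was at 9.74, 9.15, 9.15 and 9.62 in CREB3L3−/− livers, against 11.51, 11.70, 11.50 and 11.55 in WT livers (−2.15 ± 0.11, adjusted p = 4.8e-14). *Phyh* and *Hacl1*, which carry out alpha-oxidation of branched fatty acids, were lower, at −2.00 ± 0.14 and −2.37 ± 0.20. *Ehhadh*, the peroxisomal bifunctional enzyme, was not called (−0.47 ± 0.15, adjusted p = 0.015).

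Of the 18 measured PPARα targets named by the study, again chosen on this series, 12 were lower and 0 higher. *Fitm1*, a lipid droplet protein, was at 7.54, 6.97, 5.64 and 5.78 in CREB3L3−/− livers, against 9.90, 9.72, 9.86 and 10.01 in WT livers (−3.39 ± 0.35, adjusted p = 1.1e-08). *Acaa1b* and *Acaa1a*, the peroxisomal thiolases, were lower, at −2.41 ± 0.22 and −1.87 ± 0.19, *Mgll*, monoacylglycerol lipase, at −2.20 ± 0.20, *Retsat*, retinol saturase, at −1.95 ± 0.22, and *Vnn1*, the pantetheinase, at −1.76 ± 0.33. *Hadh*, *Cpt2*, *Ech1* and *Slc25a20*, all of mitochondrial or peroxisomal oxidation, were lower, at −1.53, −1.04, −1.16 and −0.83. *Plin5*, a lipid droplet coat protein, was lower, at −1.21 ± 0.29, and its call was lost with the 8 compared or the 15 ketogenic arrays alone, and without CREB3L3−/− liver 2 or 3 or WT liver 2 or 4. The 6 targets that were not called included *Cyp4a14*, the omega-hydroxylase, at 11.84, 10.28, 10.05 and 11.72 in CREB3L3−/− livers, against 12.44, 12.72, 12.36 and 12.74 in WT livers (−1.60 ± 0.47, adjusted p = 0.009). CREB3L3−/− livers 2 and 3 lay well below the other 2, and its call was gained without liver 1. *Fabp1*, *G0s2*, *Acsl5* and *Acot1* gave −0.94 ± 0.38, −1.08 ± 0.37, 0.27 ± 0.09 and 0.24 ± 0.27. *Pdk4*, the pyruvate dehydrogenase kinase that PPARα is known to induce, was named after its values were seen: it was higher, at a mean of 10.0 ± 0.24 in CREB3L3−/− livers and 6.84 ± 1.18 in WT livers (SD, n = 4 each; 3.17 ± 0.38, adjusted p = 1.2e-07).

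Ketone handling divided in direction. Of 7 measured genes, 2 of ketone synthesis were lower, 3 of ketone use or transport were higher, and 2 were not called. *Acat1*, the mitochondrial thiolase of ketogenesis, was at 10.90, 10.70, 10.66 and 10.88 in CREB3L3−/− livers, against 12.01, 12.28, 12.21 and 12.16 in WT livers (−1.38 ± 0.08, adjusted p = 1.0e-12), and *Bdh1*, which forms 3-hydroxybutyrate, was lower, at −1.82 ± 0.30. *Oxct1*, the enzyme of ketone breakdown that adult hepatocytes normally lack, was at 6.37, 7.60, 7.72 and 7.60 in CREB3L3−/− livers, against 4.86, 4.82, 4.64 and 4.73 in WT livers (2.56 ± 0.22, adjusted p = 3.9e-10). The WT livers lay close together, and the lowest CREB3L3−/− liver was liver 1. *Slc16a1* and *Slc16a6*, monocarboxylate transporters that carry ketone bodies, were higher by 1.33 ± 0.13 and 1.52 ± 0.26.

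Lipid synthesis did not move as a block. Of 16 genes of fatty acid synthesis, 7 were lower and 1 higher. *Scd2*, a desaturase of non-hepatic tissues, was at 8.25, 8.69, 9.31 and 9.69 in CREB3L3−/− livers, against 6.26, 5.82, 6.36 and 6.03 in WT livers (2.87 ± 0.27, adjusted p = 2.0e-09). *Srebf1* and *Thrsp*, regulators of lipogenesis, were lower, at −1.25 ± 0.22 and −2.70 ± 0.42, and neither was called with the 8 compared arrays alone. Of 11 genes of desaturation and elongation, 8 were lower and 2, *Fads3* and *Elovl1*, higher. *Fads3*, a desaturase of the Fads family, was at 9.57, 10.18, 9.96 and 10.07 in CREB3L3−/− livers, against 6.51, 5.78, 5.93 and 5.96 in WT livers (3.90 ± 0.21, adjusted p = 2.1e-13). *Fasn* was not called (−0.53). Of 20 genes of cholesterol synthesis, 0 were higher and 2 lower, *Ebp* (−0.89 ± 0.13) and *Sc5d* (−0.89 ± 0.14). The median of the 20 was 0.31, opposite in sign to these 2. It moved to 0.12 without WT liver 2 and to 0.52 without WT liver 4, where 2 genes were called higher.

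Amino acid breakdown and the mitochondrial pathways it feeds were lower across the groups. Of 35 measured genes of amino acid breakdown, 32 were lower and 0 higher (median −1.55). *Fah*, the last enzyme of tyrosine breakdown, was at 10.23, 9.69, 9.71 and 10.01 in CREB3L3−/− livers, against 11.64, 11.67, 11.81 and 11.72 in WT livers (−1.80 ± 0.08, adjusted p = 5.5e-15). *Hal*, histidine ammonia-lyase, was lower, at −2.46 ± 0.17, and *Acad8* and *Mmut*, of valine and propionate breakdown, at −1.55 ± 0.09 and −1.52 ± 0.09. Of 9 genes of the urea cycle and ammonia handling, 8 were lower (median −1.57). *Otc*, ornithine transcarbamylase, was at 9.31, 7.72, 8.40 and 8.65 in CREB3L3−/− livers, against 11.67, 11.68, 11.80 and 11.92 in WT livers (−3.25 ± 0.22, adjusted p = 8.6e-12). *Asl* and *Cps1*, of the same cycle, were lower, at −1.87 ± 0.16 and −1.18 ± 0.15, and *Oat*, ornithine aminotransferase, and *Glul*, glutamine synthetase, both of the pericentral zone, at −2.86 ± 0.15 and −1.64 ± 0.15.

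The TCA cycle had 14 of 20 genes lower and 1 higher, among them *Suclg1*, a succinyl-CoA ligase (−1.31 ± 0.09), and *Pcx*, pyruvate carboxylase (−1.90 ± 0.13). The respiratory chain had 24 of 27 lower and 0 higher, with a smaller median of −0.57. *Atp5b*, of the ATP synthase, was at 11.92, 11.84, 11.75 and 11.89 in CREB3L3−/− livers, against 12.25, 12.29, 12.35 and 12.33 in WT livers (−0.45 ± 0.04, adjusted p = 2.5e-10), and *Ndufa9*, of complex I, was lower, at −0.88 ± 0.06. Sugar metabolism divided: of 21 genes, 10 were lower and 6 higher. *Fbp1*, fructose-bisphosphatase of gluconeogenesis, was lower, at −2.06 ± 0.17, whereas the glycolytic isoforms of other tissues, *Pkm* and *Hk2*, were higher by 2.43 ± 0.20 and 1.2 ± 0.13.

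Bile acid genes fell more than any metabolic list described so far, with 15 of 19 lower, 1 higher and a median of −2.41. *Cyp7a1*, the rate-limiting enzyme of bile acid synthesis, was at 5.34, 3.31, 2.41 and 3.38 in CREB3L3−/− livers, against 8.95, 8.92, 8.50 and 11.29 in WT livers (−5.81 ± 0.79, adjusted p = 1.2e-06). WT liver 4 stood above the other WT livers, and every CREB3L3−/− liver lay under every WT liver. *Slc10a1*, the sodium-dependent bile acid importer NTCP, was at 10.09, 8.49, 7.95 and 8.92 in CREB3L3−/− livers, against 12.49, 12.49, 12.45 and 12.61 in WT livers (−3.64 ± 0.23, adjusted p = 2.6e-12). *Baat* and *Slc27a5*, which conjugate bile acids, were lower, at −2.41 ± 0.15 and −3.17 ± 0.22. *Abcc4*, a basolateral exporter of bile acids, was the gene that rose, at 9.16, 9.06, 8.33 and 9.25 in CREB3L3−/− livers, against 5.52, 5.35, 5.07 and 4.87 in WT livers (3.74 ± 0.24, adjusted p = 4.4e-12).

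The cytochromes P450 of drug metabolism were lower in 22 of 31 genes and higher in 0 (median −2.05). *Cyp2c29* was at 8.91, 5.70, 5.84 and 5.85 in CREB3L3−/− livers, against 11.70, 11.77, 12.03 and 12.29 in WT livers (−5.37 ± 0.41, adjusted p = 8.1e-11), with CREB3L3−/− liver 1 about 3 log2 units above the other 3. *Cyp2c37* and *Cyp2c38* were lower, at −5.56 ± 0.39 and −5.58 ± 0.66, *Cyp2f2*, of the periportal zone, at −3.25 ± 0.18, and *Cyp3a25* at −4.76 ± 0.42. These families hold near-identical copies, and a probe set may read several of them. Genes known to be higher in male than in female mouse liver were lower in 12 of 14 cases (median −2.22). Of 12 genes known to be higher in females, 2 were lower and 0 higher, and 1 was lower with the 8 compared arrays alone. The share of these that was lower was near that of all genes (11.9%). *Elovl3*, the male-biased fatty acid elongase, was at 7.69, 4.63, 4.01 and 3.76 in CREB3L3−/− livers, against 10.19, 10.56, 9.80 and 10.57 in WT livers (−5.26 ± 0.51, adjusted p = 4.2e-09). *Cyp2d9* was lower, at −2.44 ± 0.27. *Ghr*, the growth hormone receptor, and *Igfals*, the acid-labile subunit that carries IGF1, were lower, at −1.88 ± 0.12 and −1.91 ± 0.23, and *Igfbp2*, an IGF-binding protein, at −4.23 ± 0.30.

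Secreted liver proteins and the factors that keep hepatocytes differentiated were lower too. Of 31 genes of complement and coagulation, 27 were lower and 0 higher (median −1.45). *C8g*, a complement component, was at 9.81, 7.34, 7.69 and 7.97 in CREB3L3−/− livers, against 11.32, 11.46, 11.48 and 11.39 in WT livers (−3.21 ± 0.30, adjusted p = 1.8e-09), and *F7* and *F10*, coagulation factors, were lower, at −1.95 ± 0.14 and −2.03 ± 0.16. Of 21 acute phase genes 9 were lower, among them *Serpina3n* (−1.02 ± 0.10), *Itih4* (−1.68 ± 0.16) and *Crp* (−1.28 ± 0.14), and 1 was higher. Of 27 hepatocyte transcription factors, *Creb3l3* included, 14 were lower and 2 higher. *Cebpa*, which drives hepatocyte differentiation, was at 7.86, 8.28, 7.14 and 7.98 in CREB3L3−/− livers, against 9.30, 9.33, 10.03 and 9.96 in WT livers (−1.84 ± 0.19, adjusted p = 1.6e-08). *Rxra*, the partner of PPARα and other nuclear receptors, *Nr1h4*, the bile acid receptor FXR, and *Nr5a2*, an activator of bile acid synthesis, were lower, at −1.08 ± 0.08, −1.12 ± 0.11 and −1.02 ± 0.11. *Hnf4a* was lower, at −0.30 ± 0.06. Genes of both ends of the liver lobule were lower, 8 of 11 of the periportal list with *Pigr*, the immunoglobulin receptor, at −3.31 ± 0.17, and 11 of 17 of the pericentral list, with 1 higher.

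**Figure D3:**
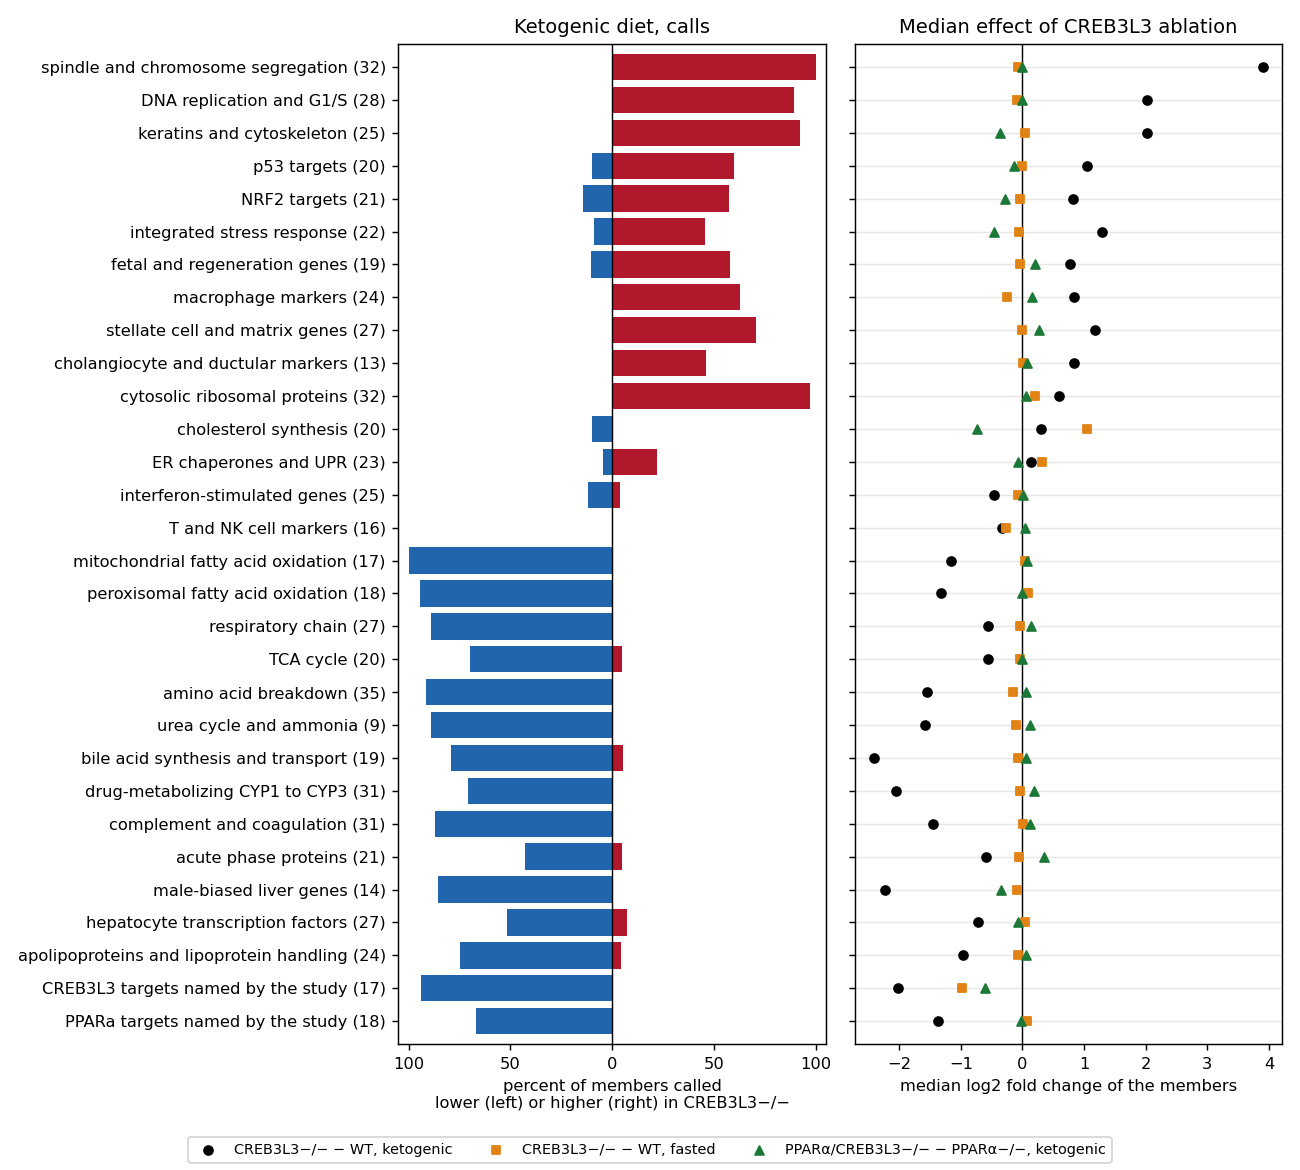
Left, percent of the measured members of 30 gene lists (number of members in parentheses) called lower (blue, left of 0) or higher (red, right of 0) in CREB3L3−/− than in WT livers on the ketogenic diet. Right, the median log2 fold change of the same members for the effect of CREB3L3 ablation on the ketogenic diet (circles), in fasted mice (squares) and on the ketogenic diet in the absence of PPARα (triangles), where the circle of the spindle list is at 3.90 and its square and triangle are at −0.08 and −0.00.

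All 32 measured genes of the spindle and chromosome segregation were higher, with all 4 CREB3L3−/− livers above all 4 WT livers for each gene and a median log2 fold change of 3.90. *Ttk*, the kinase of the spindle checkpoint, was at 5.90, 6.96, 7.22 and 6.74 in CREB3L3−/− livers, against 3.0, 3.06, 2.84 and 2.44 in WT livers (3.87 ± 0.18, adjusted p = 9.1e-15). *Plk1*, the polo-like kinase of mitosis, was at 8.06, 9.83, 9.33 and 9.28 in CREB3L3−/− livers, against 4.33, 5.09, 4.65 and 4.07 in WT livers (4.59 ± 0.29, adjusted p = 2.2e-12). *Hmmr*, a spindle-associated protein, was at 7.25, 8.43, 7.89 and 8.14 in CREB3L3−/− livers, against 3.58, 3.58, 2.74 and 2.45 in WT livers (4.84 ± 0.24, adjusted p = 5.9e-14). In all 3 genes CREB3L3−/− liver 1 was the lowest of its group and still more than 2 log2 units above the highest WT liver. *Anln*, *Prc1* and *Kif2c*, of cytokinesis and the mitotic spindle, and *Cenpe*, the kinesin of the centromere, were higher by 4.70, 4.49, 4.34 and 3.91. A dim second probe set of *Prc1* was not called (0.22).

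Of 28 genes of DNA replication and the entry to S phase, 25 were higher and 0 lower (median 2.02). *Rrm2*, the regulatory subunit of ribonucleotide reductase, was at 9.36, 10.18, 9.84 and 9.64 in CREB3L3−/− livers, against 5.99, 6.34, 5.94 and 5.46 in WT livers (3.82 ± 0.19, adjusted p = 5.8e-14), and *Rrm1*, its catalytic partner, was higher by 2.35 ± 0.16. *Uhrf1*, which keeps DNA methylation through replication, *Pole*, a replicative polymerase, and *Pcna*, the sliding clamp, were higher by 3.74 ± 0.25, 2.98 ± 0.21 and 1.74 ± 0.13. Among 18 genes of cell cycle brakes and D cyclins, 5 were higher and 1 lower. *Cdkn1a*, the inhibitor p21, was at 9.93, 10.27, 10.42 and 10.24 in CREB3L3−/− livers, against 8.35, 7.59, 6.70 and 6.61 in WT livers (2.90 ± 0.42, adjusted p = 3.5e-06). *Ccng1*, *Rbl1* and *Myc* were higher by 1.25 ± 0.14, 2.37 ± 0.21 and 2.26 ± 0.47, a second, dim probe set of *Rbl1* was not called (−0.06), and *Rbl2*, the pocket protein of resting cells, was lower, at −1.07 ± 0.12.

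Promoters of the mitotic genes are shown because all of the spindle genes were higher. The windows reach from 250 bases before to 50 bases after the RefSeq start (GRCm38.p6). Capitals mark CCAAT and TTTGAA on either strand, where CCAAT binds the factor NF-Y and TTTGAA is a form of the CHR element of genes transcribed in G2 and mitosis. *Ttk* is at chr9:83834439-83834738 (plus strand), *Plk1* at chr7:122159185-122159484 (plus strand), *Hmmr* at chr11:40733388-40733687 (minus strand), and *Rrm1*, a gene of the replication list, at chr7:102441445-102441744 (plus strand).
Ttk: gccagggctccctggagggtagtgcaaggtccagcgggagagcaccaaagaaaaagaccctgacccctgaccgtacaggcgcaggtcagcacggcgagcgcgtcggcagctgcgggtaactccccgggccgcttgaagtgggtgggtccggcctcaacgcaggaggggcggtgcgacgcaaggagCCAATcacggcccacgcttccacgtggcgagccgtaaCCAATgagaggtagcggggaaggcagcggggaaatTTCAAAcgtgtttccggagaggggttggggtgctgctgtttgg
Plk1: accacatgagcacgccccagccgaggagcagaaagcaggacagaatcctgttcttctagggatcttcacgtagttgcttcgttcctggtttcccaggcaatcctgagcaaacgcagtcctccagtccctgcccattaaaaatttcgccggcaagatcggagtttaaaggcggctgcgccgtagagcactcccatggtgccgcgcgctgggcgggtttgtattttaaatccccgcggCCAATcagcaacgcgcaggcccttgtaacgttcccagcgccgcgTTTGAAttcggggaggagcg
Hmmr: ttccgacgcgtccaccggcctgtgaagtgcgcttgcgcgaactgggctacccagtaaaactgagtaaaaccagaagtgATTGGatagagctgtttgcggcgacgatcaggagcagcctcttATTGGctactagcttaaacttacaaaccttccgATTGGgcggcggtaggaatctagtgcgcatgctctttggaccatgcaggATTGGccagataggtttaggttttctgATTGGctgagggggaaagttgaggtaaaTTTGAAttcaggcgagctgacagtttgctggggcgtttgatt
Rrm1: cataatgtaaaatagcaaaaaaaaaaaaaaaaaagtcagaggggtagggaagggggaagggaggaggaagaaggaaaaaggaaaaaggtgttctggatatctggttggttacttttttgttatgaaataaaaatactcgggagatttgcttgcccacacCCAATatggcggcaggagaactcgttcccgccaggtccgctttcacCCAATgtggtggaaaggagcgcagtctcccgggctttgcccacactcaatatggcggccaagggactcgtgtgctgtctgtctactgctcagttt
The *Hmmr* window held 5 copies of CCAAT and 1 of TTTGAA, those of *Ttk* and *Plk1* held both motifs, and that of *Rrm1* held CCAAT alone. Over the spindle genes that rose, 28 of 32 matched a window, with 31 windows in all. CCAAT was in 71.0% of these and TTTGAA or TTCGAA in 83.9%, against 37.4% and 19.2% of all 32851 windows. Both motifs together were in 67.7%, against 7.52% of all windows. The replication genes that rose had CCAAT in 80.0% of 25 windows and TTTGAA or TTCGAA in 20.0%. The CREB3L3 targets that fell held TGACGTCA, the CRE palindrome, in 1 of 17 windows (5.88%), against 1.79% of all, TGACGTGG in 0, against 0.676% of all, and CCACG in 52.9%, against 32.8% of all. The spindle genes that rose held TGACGTCA in 9.68% of their windows and CCACG in 51.6%, so that neither share was particular to the CREB3L3 targets. These motifs were searched on both strands, TGACGTGG holds CCACG on its opposite strand, and a match describes letters and not binding.

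Genes of stress responses were higher in part. Of 21 NRF2 targets, 12 were higher and 3 lower. *Slc7a11*, the cystine importer, was at 8.67, 8.49, 8.69 and 8.70 in CREB3L3−/− livers, against 4.79, 3.22, 2.64 and 2.61 in WT livers (5.32 ± 0.48, adjusted p = 1.1e-09), with WT liver 1 the highest of its group. *Cbr3*, a carbonyl reductase, *Pgd*, of the pentose phosphate pathway, and *Nqo1*, the quinone reductase, were higher by 2.88 ± 0.29, 2.41 ± 0.16 and 1.74 ± 0.19. Of 22 genes of the integrated stress response, a list that also holds *Slc7a11*, 10 were higher and 2 lower. Those that rose included *Phgdh*, at 7.04, 8.19, 7.62 and 8.24 in CREB3L3−/− livers, against 4.82, 4.44, 4.13 and 4.35 in WT livers (3.34 ± 0.20, adjusted p = 1.3e-12), and *Psat1* (3.31 ± 0.40), both of serine synthesis, and *Aldh18a1* (2.55 ± 0.32), of proline synthesis. Another probe set of *Phgdh* gave 2.90, and a dim one was not called (0.49). The 2 genes of this list that fell were *Fgf21* and *Shmt2*, and *Atf4* and *Trib3* themselves were not called (0.09 and 0.29). Of 20 p53 targets, 12 were higher and 2 lower. *Tnfrsf23* and *Tnfrsf10b*, receptors of the TNF receptor family, were both higher. *Tnfrsf23* was at 7.22, 9.54, 9.58 and 8.91 in CREB3L3−/− livers, against 5.12, 4.52, 3.60 and 3.82 in WT livers (4.55 ± 0.37, adjusted p = 1.9e-10), and *Tnfrsf10b* was higher by 3.37 ± 0.27. *Gtse1*, a protein of G2 and S phase, and *Eda2r* were higher by 3.57 ± 0.27 and 2.04 ± 0.24. Of 23 genes of endoplasmic reticulum chaperones and the unfolded protein response, 5 were higher and 1 lower (median 0.14). Over all genes 16.7% were higher and 11.9% lower, so that the number higher was near the background. The number higher was 2 without CREB3L3−/− liver 1 (with 2 lower) or liver 4, and 3 without CREB3L3−/− liver 3 or WT liver 1, 3 or 4. *Hspa5*, the chaperone BiP, was at 12.51, 12.17, 12.36 and 12.30 in CREB3L3−/− livers, against 11.80, 11.98, 11.93 and 11.94 in WT livers (0.42 ± 0.09, adjusted p = 7.8e-04), a call lost without CREB3L3−/− liver 1, and *Ssr1* was higher by 0.84 ± 0.10. *Herpud1*, which helps remove misfolded proteins, was lower, at −1.28 ± 0.15.

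Genes of the fetal and regenerating liver, the cytoskeleton and the ribosome were higher. Of 19 fetal or regeneration genes, 11 were higher and 2 lower, with *Gpc3*, a heparan sulfate proteoglycan, at 5.87, 7.64, 6.76 and 6.36 in CREB3L3−/− livers, against 3.52, 3.21, 4.25 and 3.40 in WT livers (3.06 ± 0.25, adjusted p = 2.1e-10) and *Cd24a* higher by 3.27 ± 0.29. Other members of this list, such as *Igf2* (−0.28) and *Dlk1* (−0.18), were not called. Of 25 keratin and cytoskeleton genes, 23 were higher and 0 lower (median 2.03). *S100a6*, a calcium-binding protein, was at 6.90, 8.74, 8.24 and 8.32 in CREB3L3−/− livers, against 4.41, 2.94, 3.70 and 3.84 in WT livers (4.33 ± 0.36, adjusted p = 2.8e-10), and *Tubb6* and *Tmsb10* were higher by 3.34 ± 0.25 and 3.41 ± 0.29. Of 32 ribosomal protein genes, 31 were higher, with a median of 0.59. *Rps3* was at 10.57, 10.63, 10.81 and 10.57 in CREB3L3−/− livers, against 9.80, 9.78, 9.68 and 9.75 in WT livers (0.89 ± 0.07, adjusted p = 7.7e-11), and *Rplp0* and *Rpl35* were higher by 0.90 ± 0.07 and 0.90 ± 0.06. Ribosomal protein genes have many processed copies in the genome, and probe sets can read these as well.

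Markers of other cell types were higher for macrophages, stellate cells and bile duct cells. Of 24 macrophage markers, 15 were higher and 0 lower, and 8 were higher with the 8 compared arrays alone. *Cd14*, the endotoxin co-receptor, was at 8.31, 8.33, 9.12 and 8.06 in CREB3L3−/− livers, against 5.91, 5.10, 4.85 and 4.98 in WT livers (3.25 ± 0.26, adjusted p = 1.4e-10). *Cd68*, *Trem2*, *Cd9* and *Gpnmb*, genes of phagocytic macrophages, were higher by 2.14 ± 0.25, 1.60 ± 0.19, 1.76 ± 0.16 and 3.70 ± 0.46, with *Gpnmb* at 6.81 in WT liver 1 and at 3.37 to 3.91 in the other WT livers. The markers of resident Kupffer cells *Clec4f*, *Timd4* and *Vsig4* were not called (−0.13, −0.12 and 0.44). The summed intensity of the 24 markers was 9700 to 12279 in CREB3L3−/− livers and 5128 to 7605 in WT livers.

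Of 27 genes of stellate cells and matrix, 19 were higher and 0 lower (summed intensity 6275 to 10977 in CREB3L3−/− livers and 3616 to 4074 in WT livers). *Ccn2*, connective tissue growth factor, was at 8.27, 9.79, 10.15 and 9.48 in CREB3L3−/− livers, against 6.48, 6.02, 5.75 and 6.09 in WT livers (3.34 ± 0.28, adjusted p = 3.9e-10). *Timp1*, an inhibitor of matrix proteases, *Loxl2*, a collagen cross-linking enzyme, *Vim*, vimentin, and *Tagln*, of contractile cells, were higher by 2.72 ± 0.25, 2.70 ± 0.20, 3.01 ± 0.26 and 2.20 ± 0.20, and a second, dim probe set of *Loxl2* was not called (−0.09). *Dcn*, *Lum* and *Reln*, markers of quiescent stellate cells or fibroblasts, were not called (−0.05, 0.86 and −0.48). *Tgfb1*, a fibrogenic cytokine, was higher by 1.22 ± 0.14. Of 13 cholangiocyte and ductular markers, 6 were higher and 0 lower (sums of 3527 to 4439 in CREB3L3−/− livers and 878 to 1792 in WT livers), among them *Cldn4* at 6.30, 6.92, 6.53 and 6.14 in CREB3L3−/− livers, against 4.51, 3.60, 3.60 and 3.94 in WT livers (2.56 ± 0.20, adjusted p = 1.1e-10), *Sox4* (2.27 ± 0.25), *Sox9* (1.86 ± 0.32) and *Muc1* (1.39 ± 0.16). The defining biliary genes *Krt7* and *Epcam* were not called (0.55 and 0.33). The means of 4 of the 13 markers in CREB3L3−/− livers and of 9 in WT livers lay below the array medians. Hepatocyte marker sums were 61870 to 85358 in CREB3L3−/− livers and 111018 to 118290 in WT livers. The part of these cell type levels in the results above was not tested.

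**Figure D4:**
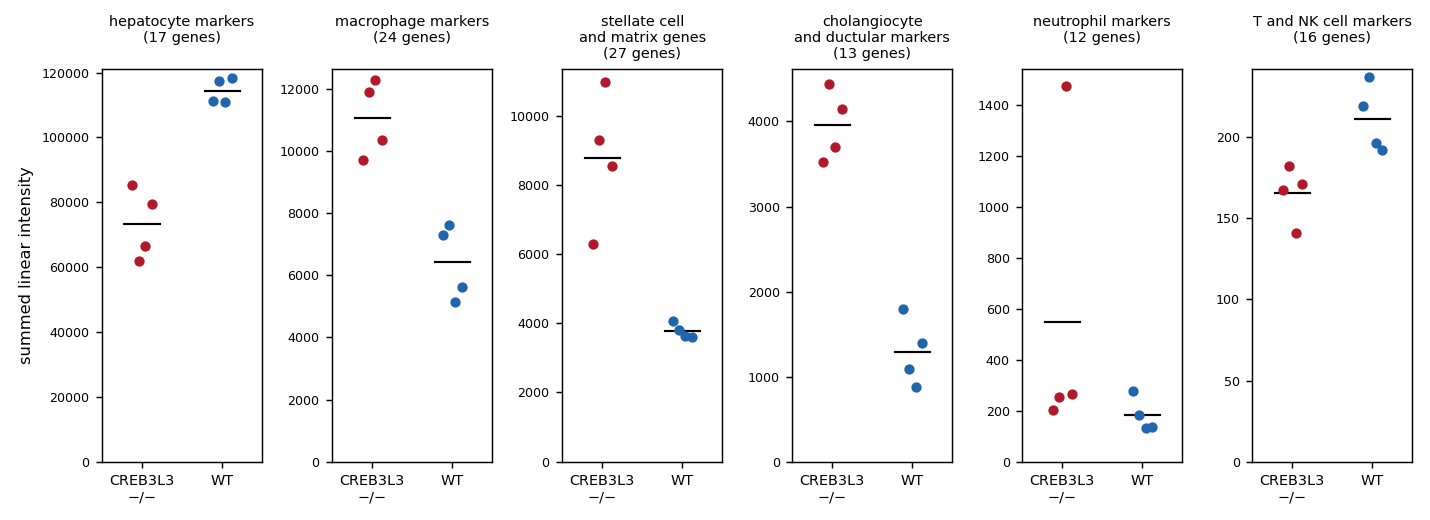
Summed linear intensity (y axis, different scale per panel, all from 0) of the markers of 6 cell types in the 4 CREB3L3−/− livers (red, left) and the 4 WT livers (blue, right), with bars for the mean. The groups do not overlap for hepatocyte, macrophage, stellate, cholangiocyte or T and NK cell markers, and the neutrophil sum of CREB3L3−/− liver 3 is 1473 against 201 to 264 in the other 3. Of the 16 T and NK cell markers, the means of all 16 in CREB3L3−/− livers and of 13 in WT livers lie below the array medians.

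Few lymphocyte markers and interferon genes were called. Of 16 T and NK cell markers, 0 were called (7 had an unadjusted limma P under 0.05), with sums of 141 to 182 in CREB3L3−/− livers and 192 to 237 in WT livers. The means of all 16 in CREB3L3−/− livers and of 13 in WT livers lay below the array medians, so that these are mostly sums of dim probe sets. *Cd3e*, a part of the T cell receptor, was at 3.49, 3.82, 3.37 and 3.88 in CREB3L3−/− livers, against 4.40, 4.72, 3.95 and 4.37 in WT livers (−0.72 ± 0.22, adjusted p = 0.014). Of 25 interferon-stimulated genes, 1 was higher and 3 lower. The number lower was 5 without WT liver 3, 6 without WT liver 4 and 1 with the 8 compared arrays alone, and 0 were higher in these fits or without CREB3L3−/− liver 2. Of 13 genes of MHC class I presentation 6 were lower, with *H2-K1* at −0.75 ± 0.08 and *B2m* at −0.46 ± 0.06. Of 27 genes of chemokines, cytokines and adhesion, 7 were higher and 0 lower, among them *Ccr2* (2.04 ± 0.26), *Vcam1* (1.39 ± 0.19) and *Tnfrsf12a* (2.73 ± 0.34), whereas *Tnf*, *Il1b* and *Il6* were not called (−0.23, 0.12 and −0.16). Neutrophil markers were higher in 3 of 12 genes, with the summed level highest in CREB3L3−/− liver 3. The means of 6 of the 12 in CREB3L3−/− livers and of 9 in WT livers lay below the array medians. *Retnlg*, made by neutrophils, was at 4.16, 5.12, 8.32 and 5.04 in CREB3L3−/− livers, against 3.37, 3.43, 2.80 and 2.79 in WT livers (2.57 ± 0.56, adjusted p = 6.5e-04), and *Mmp8*, neutrophil collagenase, was at 2.89, 3.46, 5.33 and 3.62 in CREB3L3−/− livers, against 2.73, 2.40, 2.25 and 2.27 in WT livers (1.41 ± 0.32, adjusted p = 0.001). Neither was called with the 8 compared or the 15 ketogenic arrays alone. Among sinusoidal endothelial genes, 3 of 17 were higher and 1 lower (3 lower without CREB3L3−/− liver 1, 2 without liver 4, and 0 without any other single liver), with *Lyve1* at 1.22 ± 0.26 and *Cdh5* at 0.60 ± 0.11. The share of these genes that was higher was near that of all genes (16.7%).

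The same knockout was also examined in fasted mice. The effect of CREB3L3 ablation called 1.67% of the probe sets with 1 symbol after the fast, in either direction, and the SD of its log2 fold changes was 0.228, against 0.743 on the ketogenic diet. The effect on the ketogenic diet exceeded that in fasted mice in the positive direction in 2358 probe sets with 1 symbol (11.1%) and in the negative direction in 1678 (7.91%), by a test of the difference itself. The 2 effects share no arrays. For *Inmt* the effect was −6.34 ± 0.45 on the diet and 0.21 ± 0.45 after the fast, a difference of −6.55 ± 0.64. For *Afp* it was 6.83 ± 0.35 and 0.06 ± 0.35 (difference 6.77 ± 0.49), and for *Cdh17* 6.01 ± 0.23 and −0.06 ± 0.23 (difference 6.07 ± 0.32). All 32 spindle genes and all 17 genes of mitochondrial fatty acid oxidation differed in effect between the regimens, the spindle genes positively and the oxidation genes negatively. Among the CREB3L3 targets named by the study, the effect differed negatively in 4 of 17 and positively in 1, and 12 were not called. The study described these targets as lower in the same fasted livers, and 15 of 17 were lower there. Their fasted effects, that of *Apoc2* included, were thus largely set by the choice of the list. For *Apoa4* the effect was −4.10 ± 0.20 on the diet and −3.73 ± 0.20 after the fast, for *Fabp2* −4.04 ± 0.23 and −3.38 ± 0.23, and for *Creb3l3* −6.09 ± 0.14 and −6.19 ± 0.14. *Apoc2* gave 0.12 ± 0.15 on the diet and −1.16 ± 0.15 after the fast (difference 1.28 ± 0.21). Cholesterol synthesis had 0 of 20 genes higher on the diet and 11 of 20 after the fast, and 4 of the 20 differed in effect between the regimens, all negatively. For *Ppara* the effect was −1.85 ± 0.27 on the diet and −0.46 ± 0.27 after the fast, where it was not called, nor was the difference by the rule ( −1.39 ± 0.38, adjusted p = 0.0075).

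CREB3L3 ablation was also examined on the same diet in the absence of PPARα. The comparison of PPARα/CREB3L3−/− with PPARα−/− livers called 3.2% of the probe sets with 1 symbol. The comparison with the effect above uses the same CREB3L3−/− and WT arrays as the comparison with fasted mice. The effect without PPARα was above that with PPARα in 1670 of these probe sets (7.87%) and below it in 2943 (13.9%). For *Slc7a11*, CREB3L3 ablation gave −2.44 ± 0.52 without PPARα and 5.32 ± 0.48 with it, a difference of −7.77 ± 0.70, and the means were 4.71 in PPARα/CREB3L3−/− livers and 7.15 in PPARα−/− livers. For *Sprr1a* the values were −1.33 ± 0.78 and 6.88 ± 0.72 (difference −8.21 ± 1.07), with means of 6.47 in PPARα/CREB3L3−/− livers and 7.80 in PPARα−/− livers. In both genes the mean of PPARα−/− livers lay between the means of CREB3L3−/− and WT livers. *Car3*, in contrast, was at 6.97 in PPARα/CREB3L3−/− livers and 6.93 in PPARα−/− livers, near the level of CREB3L3−/− livers with PPARα (mean 7.27), and *Sult2a8* was at 7.34 and 6.85 in the same order. All 32 spindle genes and 26 of 28 replication genes had a lower effect without PPARα, and all 17 genes of mitochondrial oxidation a higher one. The levels from which these effects started were not alike. *Cenpe* was at a mean of 2.60 in PPARα−/−, 3.03 in WT and 6.94 in CREB3L3−/− livers. *Acadm* was at 11.30, 12.15 and 10.89 in the same order, so that PPARα−/− livers were already low, and *Echs1*, of the same oxidation list, was at 10.05, 10.42 and 9.26. Of the 17 CREB3L3 targets named by the study, 8 had a less negative effect without PPARα by the test of the difference, and 9 were not called. The effect on *Creb3l3* itself was also less negative there, at −4.84 ± 0.15 (difference 1.25 ± 0.20, limma, adjusted p = 2.9e-05). Its means were 4.90 in PPARα/CREB3L3−/− livers and 9.74 in PPARα−/− livers, against 10.45 in WT livers. *Fabp2* had an effect of −3.82 ± 0.25 without PPARα, *Apoa4* one of −2.57 ± 0.22 (difference 1.53 ± 0.29, adjusted p = 2.3e-04) and *Cidec* one of −2.63 ± 0.44, and 10 of the 17 CREB3L3 targets named by the study were lower there.

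**Figure D5:**
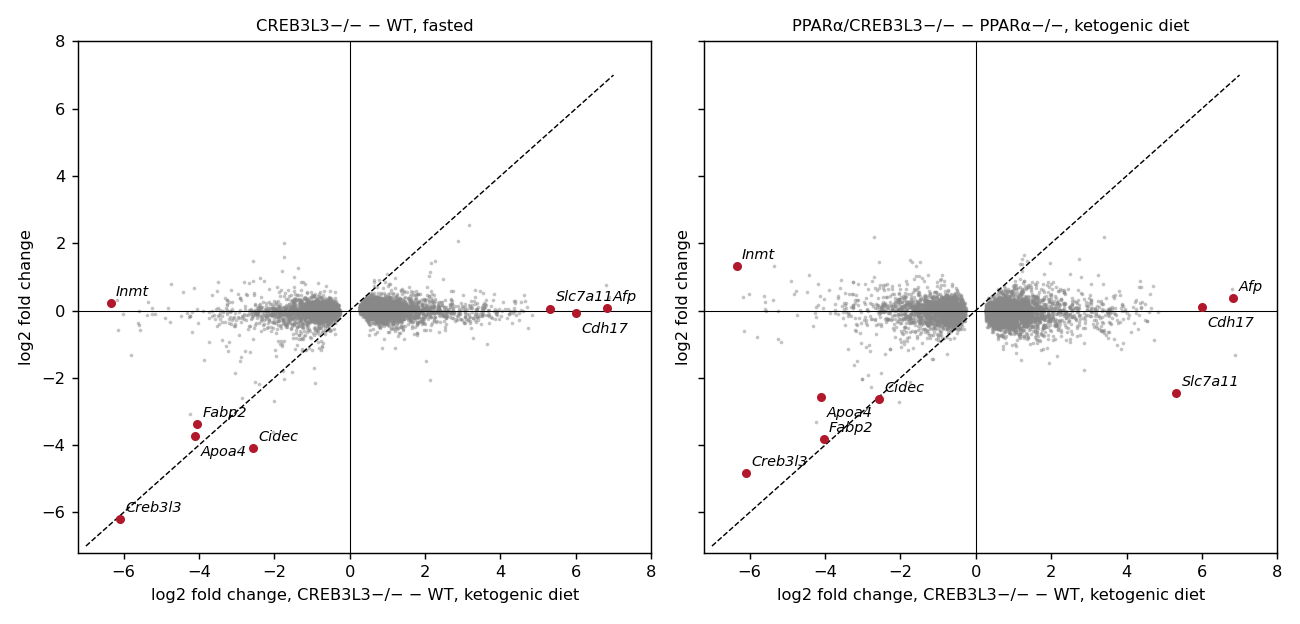
Log2 fold change of CREB3L3 ablation on the ketogenic diet (x axis, both panels) against that in fasted mice (left) and against that on the ketogenic diet without PPARα (right), for the 6167 probe sets with 1 symbol called on the ketogenic diet, with equality as the dashed line. Most points lie near 0 on the y axis, whereas Creb3l3, Fabp2, Apoa4 and Cidec lie far below it in both panels.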

How the data were processed

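Liver RNA of 30 mice was measured on Affymetrix Mouse Gene 1.1 ST arrays. The deposited values are log2 intensities that the authors obtained by Robust Multichip Averaging. The methods name probes regrouped by Entrez gene, whereas the deposited identifiers are the manufacturer's transcript clusters, named here from the platform annotation. The methods and the labels name different labelling kits. RMA compresses differences near background, and the number of arrays limits the precision.

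Linear models with intensity-trended empirical Bayes were fitted in limma 3.58.1 (R 4.3.3) to 35556 probe sets and 30 arrays in 8 groups, with no filter on dim probe sets. P-values were adjusted by Benjamini-Hochberg over all probe sets. A probe set was called at P under 0.001 and a fold beyond 1.2, after the methods. A gene in a list was read from its probe set with the highest mean. The steps were tested on simulated data with the same spread in all groups, which cannot show how they behave where groups spread unequally. Replicates carry only a number in their titles, so that p-values measure the spread between these samples. Each probe set had 1 estimate of this spread, shared by all 8 groups. Where CREB3L3−/− livers spread more than the other groups, the SE and p-value may be too small. *Cyp2c29*, for example, had an SD of 1.56 in CREB3L3−/− and 0.27 in WT livers on the ketogenic diet, and *Car3* 1.62 and 0.30.

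Named genes were the 12 largest increases and decreases without overlap, up to 5 members per list by lowest P, *Creb3l3*, *Ppara*, the members of both study lists, and the 6 largest differences of effects in each direction. Other genes were named after their values were seen. Of the 53 lists, 2 came from the study. The members and lists were chosen with earlier results of these data known. Of the list members, 1024 matched a probe set with 1 symbol and 130 did not. Promoter windows came from RefSeq (GRCm38.p6). Alternatives in the arrays, normalization, variance model, dim probe sets, thresholds and replicates were run.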

Additional observations from a re-analysis of the deposited data

Results flagged for a closer look

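In 25 of 346 groups of 4 livers (173 genes, both genotypes), 1 liver stood apart from the other 3 by Dixon's test, where chance marks about 5%. CREB3L3−/− liver 1 was the liver marked in 10 of them and WT liver 1 in 4. In CREB3L3−/− liver 1, on the log2 scale, *Afp* was at 9.20, *Apoc2* at 11.52, *Kif2c* at 7.24, *Loxl2* at 7.58, *Oxct1* at 6.37 and *Tmsb10* at 10.59, all below the other 3 livers, and *Cyp2c29* was at 8.91, *Cyp2c38* at 6.52, *Hsd17b10* at 9.16 and *Igfbp2* at 9.50, all above them. In 9 of these 10 genes, all but *Apoc2*, liver 1 lay on the side of the WT livers. In other CREB3L3−/− livers, *Serpina3n* (10.86) and *Slc7a11* (8.49) were low in liver 2, *Bdh1* (8.98) was low and *Rpl35* (11.37) high in liver 3, and *Slc25a20* (10.07) was high in liver 4. In WT liver 1, *Afp* was at 3.86, *Bmp8b* at 5.77 and *Gpnmb* at 6.81, above the other WT livers, and *Cyp2c38* at 8.97, below them. *Vnn1* was high in WT liver 2 (11.11), *Srebf1* in WT liver 3 (9.49) and *Cyp7a1* in WT liver 4 (11.29), and *Cyp21a1* (3.38), *Fabp2* (10.54) and *Herpud1* (11.84) were low in WT liver 4.

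The effect of CREB3L3 ablation differed between the ketogenic diet and the fast in 4036 probe sets with 1 symbol (ketogenic minus fasted, limma contrast of the difference). The largest positive differences were those of *Afp* (6.77), *Sprr1a* (6.47), *Cdh17* (6.07), *Akr1c18* (6.03), *Slc7a11* (5.27) and *Cyp21a1* (5.26). The largest negative ones were those of *Inmt* (−6.55), *Serpina6* (−6.50), *Sult2a8* (−5.92), *Rgs16* (−5.62), *Cyp8b1* (−5.58) and *Cyp2c38* (−5.56). On the ketogenic diet, the effect differed between mice without and with PPARα in 4613 probe sets (without minus with). It was negative for *Sprr1a* (−8.21), *Slc7a11* (−7.77), *Afp* (−6.47), *Akr1c18* (−6.15), *Cdh17* (−5.91) and *Cyp21a1* (−5.62), and positive for *Inmt* (7.68), *Rgs16* (6.68), *Serpina6* (6.60), *Sult2a8* (6.50), *Upp2* (6.06) and *Cyp2c38* (5.85). Both differences include the same CREB3L3−/− and WT livers of the ketogenic diet, so that genes they share are not independent.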

How the results depend on the processing

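Over all probe sets, 4560 were higher and 3044 lower in CREB3L3−/− livers, and the effect differed in 4897 against the fast and in 5669 without PPARα. Leaving out 1 liver gave 4061 to 4652, 2696 to 3009, 4347 to 5307 and 5187 to 5945, with the most calls without CREB3L3−/− liver 1. With a fold beyond 2, the 4 counts were 1614, 1180, 2599 and 2975. At an adjusted p under 0.05, 5010 were lower and the effects differed in 7644 and 8606, and with a fold beyond 1.2 as well in 4796, 7523 and 8532. Of 91 alternative values of these counts, the other 81 stayed within 1.5 times. Median centring gave 4076 higher and 3476 lower. With the replicate block the counts were 4568, 3047, 4881 and 5560. Same-numbered livers of the 2 genotypes deviated from their group means with correlations of −0.08 to 0.04, and livers of unlike number with −0.08 to 0.12. Deviations centred within groups of 4 scatter around 0, so these values cannot tell whether a number marks a shared day, litter or batch. Leaving out liver 1 of both genotypes, chosen after seeing the data, gave 4505 and 2961, and a median of −1.63 for the PPARα targets named by the study. Of 3114 values of 173 named genes, 3085 kept direction and call, 22 lost the call, 6 gained it and 1 turned, *Acot1*, which was not called and ranged between −0.05 without CREB3L3−/− liver 4 and 0.45 without CREB3L3−/− liver 1. Calls were lost for *Fgf21*, *Plin5*, *Pck1*, *G6pc*, *Mfsd2a*, *Srebf1*, *Thrsp*, *Retnlg*, *Mmp8* and *Hspa5*. A fit with fewer arrays has fewer residual degrees of freedom, and the part of this in the lost calls was not tested. Calls were gained for *Cyp4a14*, *Ehhadh* and *Fabp1*, and the replicate block changed no call of a named gene but that of *Cyp4a14* (−1.60). With the 8 compared arrays alone, the number lower was 4 of 16 in fatty acid synthesis, 5 of 9 in the urea cycle, 9 of 27 among hepatocyte transcription factors, 5 of 11 in the periportal and 7 of 17 in the pericentral list, and 1 of 21 NRF2 targets, and the number higher was 8 of 24 among macrophage and 0 of 12 among neutrophil markers. Small counts moved by 1 when a liver was left out: the TCA gene that was higher (lost without CREB3L3−/− liver 1 or WT liver 1 or 2), 1 of 2 lower genes of the integrated stress response (CREB3L3−/− liver 3, WT liver 1 or 2), of the fetal list (any liver but CREB3L3−/− liver 2 and WT liver 1) and of the female-biased list (WT liver 4), and 1 more higher pericentral gene (CREB3L3−/− liver 2). Low intensities limit what dim probe sets can show.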
